A study of Mus musculus with 21 samples.

Results

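The sites described here are single-nucleotide variants in untranslated regions (UTRs) of genes that carry a dbSNP identifier and were listed in 7 mouse tumours. A site was a member if it stood in every tumour list except that of T-LCDM-P9 replicate 2, had an entry in dbSNP, and was annotated to a 3′ or 5′ UTR. These conditions held for 375 sites, which is 4.98% of the 7536 dbSNP sites common to the 7 tumours. The 7536 sites also hold 1927 coding and 4845 intronic ones. The 8 tumour lists together hold 15030 distinct sites, and all lists of the series hold 19181. Since presence in the lists chose the members, their number and their kind are descriptions and were not tested.

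The study compared genome stability of mouse embryonic stem cells (ESCs) grown in 5 conditions, and of tumours taken from mice made from such cells by tetraploid complementation, in which the injected stem cells build the body of the mouse. All tumours and the wild-type blood used as control bear the strain label C57BL6X129S6F1, a first-generation cross. The series title names exome sequencing and its design text names ATAC-seq for the tumours, and the labels leave unclear which of them gave the tumour calls. The labels do not say what P9 and P14 stand for, nor whether the tumours came from separate mice or clones.

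The culture media behind the tumours all held 1000 IU of mouse LIF, the cytokine that maintains mouse ESCs, and 3 μM Chir99021, a GSK3 inhibitor, in N2B27 base. The medium 2iL added 1 μM PD0325901, a MEK inhibitor, on feeder cells. The medium 2iL-F had the same additions without feeders. A2iL held 1.5 μM CGP77675, a Src-family kinase inhibitor, in place of PD0325901. LCDM held 2 μM Dim and 2 μM Mih in its place. The 7 tumours are T-2iL-P9 (n = 1), T-A2iL-P9 (n = 3), T-A2iL-P14 (n = 1), T-LCDM-P9 replicate 1 (n = 1) and T-2iL-F-P9 (n = 1). The sample names in the deposited headers of T-2iL-P9 and T-2iL-F-P9 differ from their labels, and whether these 2 lists were exchanged cannot be told apart.

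The 5′ UTR lies between the start of the mRNA and the start codon and is read by the scanning ribosome, and upstream start codons in it can lower translation of the main reading frame. The 3′ UTR follows the stop codon and carries binding sites for microRNAs and RNA-binding proteins, as well as the signal for polyadenylation. Exome capture is designed on coding exons, so UTR bases near the coding sequence are often read along with them.

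Sequence around a member could be printed for 14 of the 94 sites in 5′ UTRs, those that fall in the first 50 bases of a RefSeq transcript (GRCm38.p6, the same assembly as mm10). The reference base of the deposited lists matched the RefSeq base at all 14. The 7 printed here are of immune, histone, ribosomal, splicing and lipoprotein genes and of 1 gene also listed in T-LCDM-P9 replicate 2; they were picked after their values were seen. Each is given on the transcript strand, 5′ to 3′, and the capital marks the base that was altered.

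Xab2, chr8:3621269-3621289, minus strand: gagccaggaaGatggtggtga

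Fcer2a, chr8:3690351-3690371, minus strand: tacatagaccGagctaaggag

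Cd3g, chr9:44980396-44980416, minus strand: agccaggccaGctgctgcaca

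Hist1h4k, chr13:21750519-21750539, minus strand: agcatctctgTtctgagctgt

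Rps27l, chr9:66946120-66946135, plus strand: aagcgagcagTtcgtc

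Apoc4, chr7:19681429-19681449, minus strand: tcccttccccGgtgaaagagt

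A430033K04Rik, chr5:138622859-138622879, plus strand: gtctgggaccCtccatattgg

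In Xab2, which codes for a splicing factor that binds the repair protein XPA, the altered base lies 1 base before the start codon, and the atg of the coding sequence follows it directly. That change is G>A on the transcript. In Fcer2a, the low-affinity IgE receptor, it is G>C and lies 16 bases before the start codon. In Cd3g, a subunit of the T cell receptor complex, it is G>A and lies 86 bases before it. The T>C changes of Hist1h4k, a histone H4 gene, and Rps27l, a ribosomal protein paralog, lie 24 and 45 bases before the start codon. In none of the 14 windows did either allele form an ATG over the altered base, searched as the letters ATG on the transcript strand. As background, 44.3% of all 32851 windows of 50 bases hold an ATG, and 3.72% of their stretches of 5 bases do. This says only that these letters are not formed in these windows.

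Members lay mostly in 3′ UTRs. Of the 375 sites, 281 were annotated to a 3′ UTR (74.9%, 95% Wilson interval 70.3 to 79.1) and 94 to a 5′ UTR (25.1%). Distances to the codon are the smallest over the transcripts listed for a site. By this measure the sites in 3′ UTRs lay close to the coding sequence, with a median of 84 bases after the stop codon (quartiles 38 and 134). Of them 169 (60.1%) lay within 100 bases and 15 beyond 1000 bases. In 5′ UTRs the median was 53.5 bases before the start codon (quartiles 26.25 and 93.75), with 75 sites (79.8%) within 100 bases.

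The altered base was next to a start or stop codon at a few members. Beside Xab2, a C>T change of Hist2h4, a histone H4 gene, lay 1 base before the start codon. Its allele fraction, the share of reads with the alternative base, ran from 0.342 to 0.52 in the 7 tumours with a median of 0.4. A G>T change of Bin3, an adaptor of the membrane-bending BAR family, lay 1 base after the stop codon. Its fraction ran from 0.277 to 0.607 with a median of 0.463. In all, 14 sites in 5′ UTRs and 19 in 3′ UTRs lay within 10 bases of the codon. At the other end, the site of Ptprd, a receptor tyrosine phosphatase, was annotated 1886371 bases before its start codon, so the deposited offsets can be longer than a transcript.

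**Figure D1:**
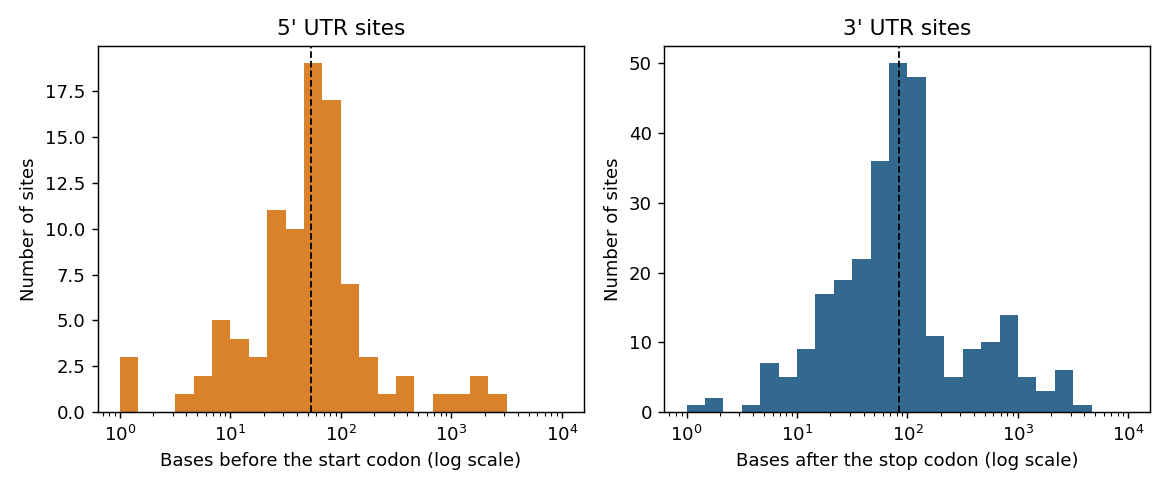
Number of members by distance from the start codon (5′ UTR, left) and from the stop codon (3′ UTR, right), in bases on a log axis, with the median as a dashed line. The distance is the smallest over the transcripts listed for a site. Most sites lie within 100 bases of the codon (75 of 94 and 169 of 281); the Ptprd site, at 1886371 bases, lies outside the axis.

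The members were spread over 309 genes, 248 of them with 1 site, 54 with 2, 5 with 3 and 2 with 4 (a site annotated to several genes counts under each). The genes with the most sites were Ccr2, the receptor that draws monocytes to inflamed tissue, and Paqr8, a membrane progestin receptor, with 4 each in their 3′ UTRs. Those with 3 were Ccr3, the eotaxin receptor of eosinophils, Cxcl11, a ligand of Cxcr3, Ercc2, the XPD helicase of nucleotide excision repair, Erich5 and Izumo3, a sperm protein. Adam28, Bsdc1, C1qtnf3, Cables1 and Capn9 lead the genes with 2 in alphabetical order. At both ends of the gene there were sites in 6 genes, namely Cxcl11, Erich5, Izumo3, Cd209a, Fam214a and Golt1a.

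The 4 Ccr2 sites lay on chromosome 9 at 124107336, 124107379, 124107477 and 124107650, 530 to 844 bases after the stop codon. Their allele fractions differed along the UTR. The first ran from 0.177 to 0.345 (median 0.253), the next from 0.26 to 0.402 (median 0.355), the next from 0.341 to 0.537 (median 0.433) and the last from 0.318 to 0.558 (median 0.459). All 7 values of the first site were below 0.35, while the last was above that in 5 of 7 tumours. Ccr2 belongs to a family of similar receptor genes. Its sites are not annotated as a segmental duplication or a repeat, and the assignment of its reads was not tested. The 4 Paqr8 sites lay 2181 to 3036 bases after the stop codon, among the 15 sites beyond 1000 bases, with medians of 0.421 to 0.468.

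In the other leading genes these fractions were found at the site of median position, or at the first of a pair. Ccr3 ran from 0.442 to 0.673 with a median of 0.477. Cxcl11 ran from 0.44 to 0.492 with a median of 0.451, a narrow range at 98 to 153 reads. Izumo3 ran from 0.441 to 0.579 with a median of 0.453. The medians of these 3 sites lay close to an even share of both alleles, but single tumours did not always, and the third Ccr3 site went as low as 0.261. Ercc2 ran from 0.261 to 0.588 (median 0.364) and Erich5 from 0.231 to 0.4 (median 0.353), both at no more than 28 reads per tumour. C1qtnf3, a secreted hormone of the C1q family, ran from 0.28 to 0.392 (median 0.333) at its first site and from 0.194 to 0.455 at its second. Adam28, a membrane metalloprotease, had a median of 0.467, Bsdc1 0.41, Capn9, a calpain of the digestive tract, 0.44, and Cables1, an adaptor of Cdk5 and Abl, 0.48. With at least 20 reads required in every tumour and the control, no site of Ercc2, Erich5 or Cables1 was kept, and 1 of the 2 Capn9 sites was.

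Of 10 gene lists, 4 had members. The lists are short and made of chosen names or symbol patterns, so they do not cover whole classes. The translation and ribosome list, chosen by symbol, had 5 among its 32 common dbSNP sites. In Eif5b, the initiation factor that joins the ribosomal subunits, the C>A change 10 bases after the stop codon had fractions of 0.211 to 0.372 (median 0.271) at 76 or more reads. Those 7 values were all under 0.4. The sites of Rps3a1 (median 0.492) and Rps27l (median 0.538) stood near an even share. That of Rpl3 ran from 0.5 to 1 at only 3 to 12 reads, so its level is poorly measured. The fifth, in Rps6ka1, belongs to a kinase that the symbol rule caught and had a median of 0.368.

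The solute carrier list, chosen by symbol, had 11 members in 10 genes, among 143 common sites. It includes Slc4a1ap, an adaptor protein that the symbol rule caught. The carriers include Slc2a4, the insulin-responsive glucose transporter, with 0.308 to 0.765 (median 0.6), and Slc37a4, the glucose-6-phosphate transporter of the endoplasmic reticulum, with 0.37 to 0.575 (median 0.487). Slc38a4, an amino acid transporter, ran from 0.171 to 0.373 (median 0.284) at 51 to 82 reads, below 0.4 in every tumour. Slc13a4, a sulfate transporter, had a median of 0.474 and Slc17a5, the lysosomal sialic acid transporter, 0.417. The Slc45a4 sites had medians of 0.44 and 0.471. The list of DNA repair genes had the 3 Ercc2 sites among 61. Repair genes outside the list, such as Eme1 and Polk, picked with their values known, also held members. The zinc finger list had the 2 Zfp111 sites among 74, with medians of 0.254 and 0.307.

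The other 6 lists had no member. They were a list of RNA-binding and small-RNA proteins that act on UTRs (24 common dbSNP sites), tumour suppressors and oncogenes (23), collagens and laminins (109), imprinted genes (10), histocompatibility genes (7) and pluripotency genes (6). RNA-binding proteins outside the list, such as Hnrnpc and Stau1, did hold members. Across the genome UTR sites were 4.98% of the common sites, and most of these lists held too few common sites for a count of 0 to stand out. Among genes with a member, 125 (40.5%) also had a common coding site, and 118 (38.2%) had neither a coding nor an intronic one.

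Transitions, the exchanges between A and G or between C and T, were 65.1% of the members (95% Wilson interval 60.1 to 69.7). They were 78.4% of the coding sites (76.5 to 80.2), 72.3% of the intronic sites (71.0 to 73.6) and 73.4% of all common dbSNP sites. The interval of the UTR sites overlaps neither the coding nor the intronic one. By end the shares were 65.5% in 3′ UTRs (59.7 to 70.8) and 63.8% in 5′ UTRs (53.8 to 72.8). The 5′ interval overlaps the intronic one, and the classes were not tested against each other. With strands folded, C>T was 35.7% of the UTR sites, 46.2% of the coding and 40.8% of the intronic ones. C>G was 10.4% of the UTR sites, 14.9% of those in 5′ UTRs, and 6.18% and 5.92% of the coding and intronic sites. T>A was 8.19% of the sites in 3′ UTRs and 3.19% of those in 5′ UTRs, the latter being 3 sites.

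Changes were also counted on the transcript strand, and the ends were not tested against each other. In 5′ UTRs G>A was counted 22 times (23.4%) and C>T 11 times (11.7%), and G>C 11 times against 3 for C>G. In 3′ UTRs G>A and C>T were nearly equal, with 51 and 50 sites. The intervals cover counting error only, and neighbouring sites are not independent.

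**Figure D2:**
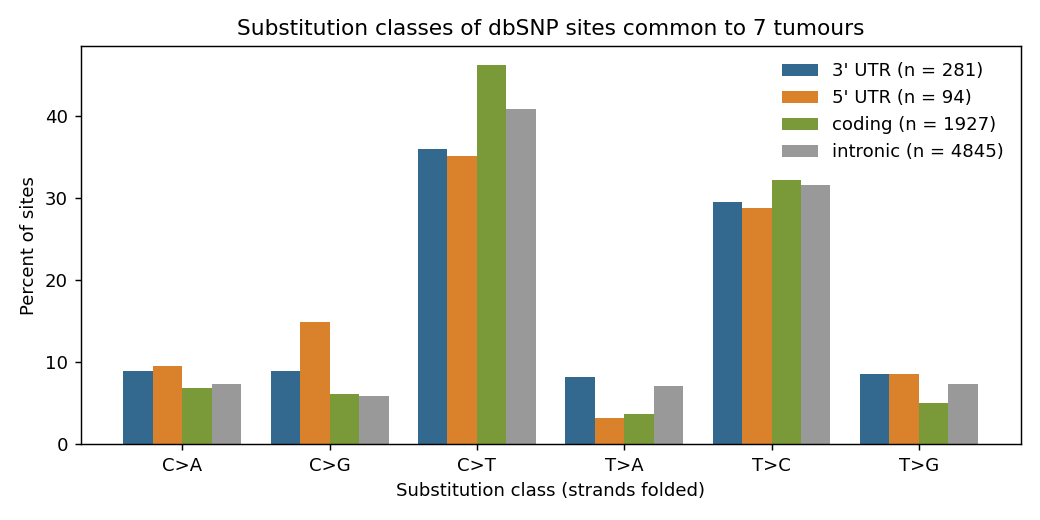
Percent of sites in each folded substitution class for 3′ UTR, 5′ UTR, coding and intronic dbSNP sites common to the 7 tumours. C>T is lower in the UTR sites (35.7% over both ends) than in the coding sites (46.2%), and C>G reaches 14.9% in 5′ UTRs.

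Members lay on 18 chromosomes. Chromosome 9 held 48 and chromosome 7 held 43, followed by 15 with 32 and 4 with 31, whereas chromosome 16 held 3 and 19 held 4. Chromosome 10 held none of its 122 common dbSNP sites and chromosome X none of its 3. Chromosome 9 had 12.8% of the members and 9.78% of all common dbSNP sites. Chromosome 17 had 2.67% of the members and 5.61% of the common sites.

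**Figure D3:**
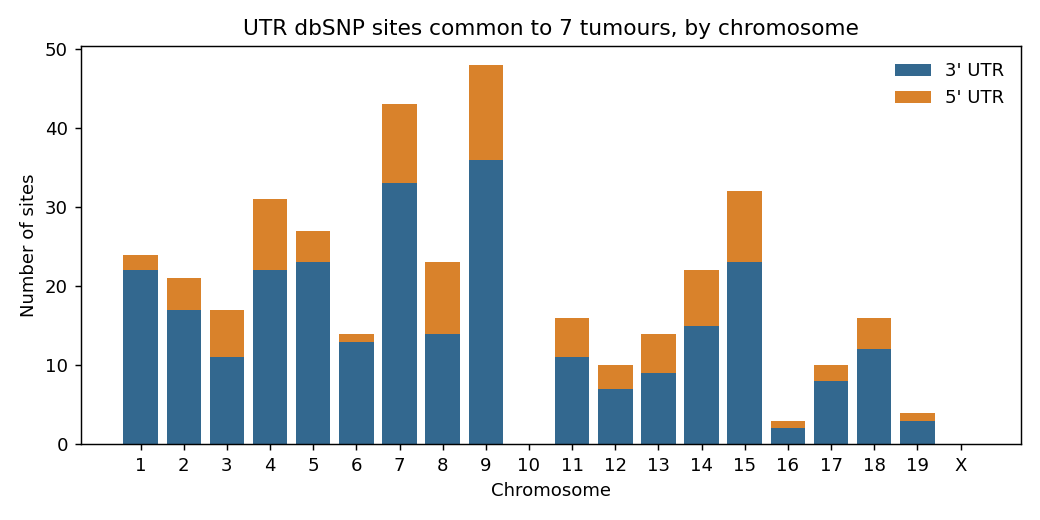
Number of members on each chromosome, split into 3′ and 5′ UTR sites. Chromosomes 9 and 7 hold the most (48 and 43), and chromosomes 10 and X hold none.

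Many members lay in runs along the chromosomes, and whether they cluster beyond the common dbSNP sites was not tested. When members at most 1 Mb apart were joined, 178 runs resulted, of which 101 were single sites and 12 held 5 or more sites, 115 in all. The run with the most members, chr7:16497608-20019140, held 21 of its 260 common dbSNP sites. It contains the pregnancy-specific glycoprotein genes Psg16, Psg22, Psg23, Psg26 and Psg29, the adhesion genes Ceacam12, Ceacam19 and Ceacam20, and the lipoprotein gene Apoc4 and Ercc2. Psg and Ceacam are families of related genes. Of the sites in these genes, those of Psg22, Psg23 and Psg26 lie in segmental duplications and the others do not. Whether reads of one gene were assigned to another was not tested.

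A run of 14 members, among 199 common dbSNP sites, at chr9:44141891-45406090 held Cd3e and Cd3g, both of the T cell receptor complex, Il10ra, a subunit of the interleukin 10 receptor, and H2afx, the histone variant marked at DNA breaks. Cd3e had fractions of 0.2 to 0.478 and 0.245 to 0.351 at its 2 sites, and Cd3g 0.4 to 0.576. The Cd3g values were all at or above 0.4, and those of the second Cd3e site all under 0.4.

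A run of 13 members farther along chromosome 9 included sites of the chemokine receptor genes Cxcr6, Ccr1, Ccr3 and Ccr2, and of Lztfl1, a regulator of ciliary trafficking. They are 13 of 30 common dbSNP sites there, and all 13 lie in 3′ UTRs. Cxcr6, the receptor for Cxcl16, ran from 0.364 to 0.538 (median 0.447). The sites of Ccr1, a receptor of inflammatory chemokines, had medians of 0.353 and 0.433. Lztfl1 ran from 0.488 to 0.558 (median 0.5) and lies in a segmental duplication.

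A further run at chr8:3621279-4359657 held 9 members, among 81 common dbSNP sites, in Xab2, Fcer2a, the lectin receptor genes Cd209a, Cd209f and Cd209g, Ccl25, a chemokine of thymus and gut, and Pet100. Fcer2a ran from 0.363 to 0.472 at 72 to 140 reads. Cd209g, in a segmental duplication, was the lowest, with 0.132 to 0.233 (median 0.2). Ccl25 ran from 0.15 to 0.5 at 12 to 28 reads.

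At the short scale, 140 members (37.3%) had another member within 10 kb, against 54.2% of the coding and 72.7% of the intronic sites with one of their own kind. These shares depend on how many sites each class holds. With any common dbSNP site counted, 269 members (71.7%) had one within 10 kb, against 77.7% of all common dbSNP sites. The smallest gap was 1 base, and 17 pairs of a gene were at most 10 bases apart. The Il10ra pair at 45269129 and 45269130 and the pair of Fbxl18, an F-box gene, had identical fractions in 6 of 7 tumours, the most of the 17. The pairs of Paqr8, Serpinb8, Rbbp8 and Vmn1r171 were identical in 0 of 7, with largest differences of 0.02 to 0.061. Pairs so close can lie on the same reads and were not taken as independent sites.

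Allele fractions of the members centred a little below 0.5 in each tumour. The per-tumour medians were 0.444 in T-2iL-P9, 0.456, 0.462 and 0.444 in T-A2iL-P9 replicates 1 to 3, 0.459 in T-A2iL-P14, 0.462 in T-LCDM-P9 replicate 1 and 0.439 in T-2iL-F-P9. The lowest and highest differ by less than the quartile range within any tumour, for example 0.3715 to 0.5 in T-2iL-P9. Coding sites had medians of 0.436 to 0.447 over the same tumours. Median depth at the members was 30 to 44 reads, with 3 reads at the shallowest call. Every member was given a heterozygous genotype in all 7 tumours, including the few at a fraction of 1. So was each of the 7536 common dbSNP sites, so this label does not set the members apart.

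**Figure D4:**
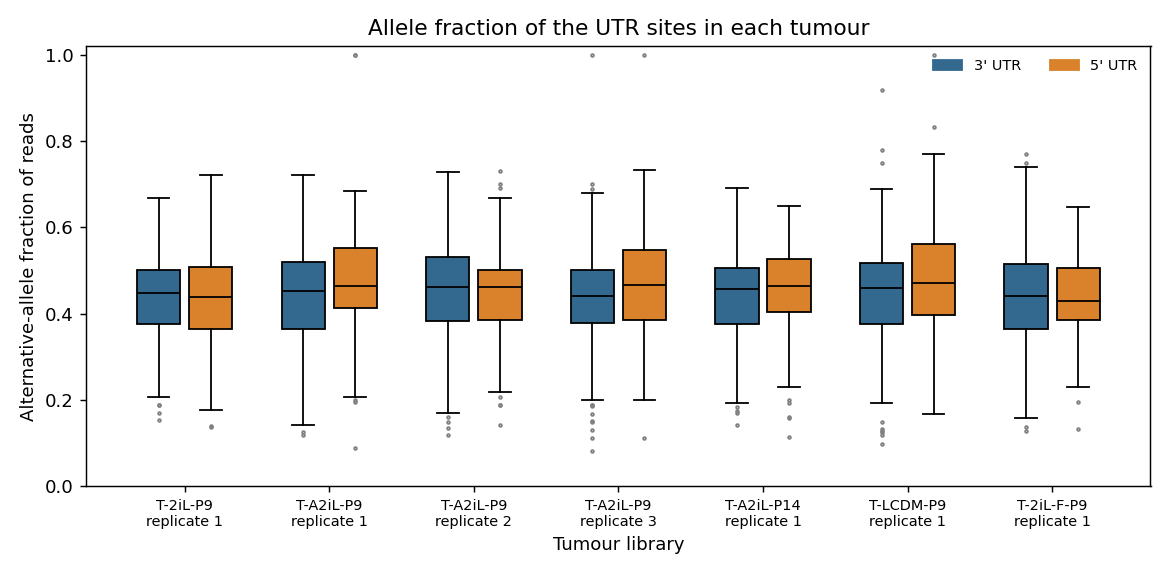
Allele fraction of the 281 3′ and 94 5′ UTR members in each of the 7 tumours, with boxes for median and quartiles, whiskers to 1.5 times the quartile range and dots for sites beyond. Medians over both ends lie between 0.439 and 0.462 in every tumour.

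Over the 7 tumours the median of a site ran from 0.143 to 0.625. A median between 0.4 and 0.6 was found at 295 sites (78.7%), against 76.9% of all common dbSNP sites. At 25 sites (6.67%) all 7 values were below 0.4, against 7.86% of all common dbSNP sites. At 6 members (1.6%) all were below 0.3, against 2.61% of all common dbSNP sites. These 6 members, named after their values were seen, are in Psg16 (0.12 to 0.273), Gm5591 (0.089 to 0.239), Cd209g (0.132 to 0.233), Lysmd2 (0.118 to 0.25) and Rbbp8 (2 sites, 0.098 to 0.245). Gm5591 and Cd209g lie in segmental duplications and Psg16 in a repeat, whereas Lysmd2 and Rbbp8 lie in neither. In all, 16 members (4.27%) lay in segmental duplications, with site medians of 0.143 to 0.5, against 2.32% of all common dbSNP sites. In repeats there were 12 (3.2%), against 4.84% of all common dbSNP sites. These shares were not tested.

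The allele fraction was compared between culture histories on the 6 tumours labelled P9. The rule did not use the fraction itself, but a call needs alternative reads, so sites with a low fraction in any of these tumours are missing from the comparison. The median fraction was 0.25 at UTR dbSNP sites called in 1 tumour and 0.452 at the members. T-A2iL-P9 had a median fraction of 0.454 ± 0.00917 (SD, n = 3) and the other 3 P9 tumours 0.448 ± 0.0121 (SD, n = 3). The difference of 0.00567 was smaller than the spread between tumours (exact two-sided permutation test, p = 0.8, adjusted p = 0.8 over 3 tests). Median depth was 33 ± 3 against 36.3 ± 6.66 reads (exact permutation test, p = 0.7, adjusted p = 0.8). The 5′ median minus the 3′ median was 0.0122 against -0.00267 (exact permutation test, p = 0.2, adjusted p = 0.6). With 3 tumours against 3 the smallest p possible is 0.1, so this design cannot pass 0.05, and the other 3 tumours come from 3 different culture conditions.

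Site by site, limma on log2 allele read ratios called 0 of 375 members between the same groups, and 0% of all 7536 sites. At an unadjusted p under 0.05 there were 18 members (4.80%), against 363 sites (4.82%) overall. The lowest p belonged to Laptm4b, a lysosomal membrane protein, whose fractions were 0.208, 0.286 and 0.429 in T-A2iL-P9 and 0.484, 0.588 and 0.56 in T-2iL-P9, T-LCDM-P9 replicate 1 and T-2iL-F-P9 (limma log2 difference in allele ratio -1.40, 95% interval -2.30 to -0.51, adjusted p = 0.964). T-A2iL-P14, which did not enter the fit, had 0.483. Hist1h2bm, a histone H2B gene, went the other way, with 0.72, 0.667 and 0.486 against 0.41, 0.294 and 0.429 (limma, 1.44, interval 0.51 to 2.37, adjusted p = 0.964), and T-A2iL-P14 had 0.6. Neither passed the test.

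A chi-square test of the allele reads over all 7 tumours, added after the data had been seen, compares these libraries and not conditions. It called 0 of the 317 members with expected counts of at least 5, and 13 of 6327 sites (0.205%) overall. At an unadjusted p under 0.05 there were 15 members (4.73%), against 335 sites (5.29%) overall.

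The control held the alternative base at many members, but never in more than 1 read. Of the 375 sites, 162 (43.2%, 95% Wilson interval 38.3 to 48.3) had exactly 1 alternative read in the wild-type blood and 213 had none, against 41.8% with a read over all common dbSNP sites. No call of any tumour list had more than 1. At members with at least 40 control reads the share was 136 of 195 (69.7%), and at fewer reads it was 26 of 180 (14.4%). Over all common dbSNP sites these shares were 67.7% and 15.0%, so the dependence on depth does not set the members apart. Control depth ran from 8 to 209 reads with a median of 41. The control values were identical in the 7 lists at all 375 sites, so the lists share a control and this is a measurement of 1 library. Among the leading genes, Ccr2 had 1 alternative read of 209 at its second site, and Cxcl11 had 1 of 117 at its first and 0 of 120 at its second.

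Just outside the rule, 79 UTR dbSNP sites were listed in 6 of the 7 tumours. Their median depth was 14 reads and their median fraction 0.429, and the control had a median of 15 reads. For the members these values were 34 reads, 0.452 and 41 reads. The tumour that lacked the site was T-A2iL-P9 replicate 2 at 19 sites, replicate 1 at 16 and replicate 3 at 13. It was T-LCDM-P9 replicate 1 at 11, T-2iL-F-P9 at 11, T-2iL-P9 at 6 and T-A2iL-P14 at 3. The 7 lists held 584 distinct UTR dbSNP sites, so 64.2% were members, and of the 476 to 518 UTR dbSNP calls of a tumour 72.4 to 78.8% were.

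T-LCDM-P9 replicate 2, which the rule leaves out, listed 3634 calls, against 9752 to 10325 in the others. Of the 375 members it held 24 (6.40%), against 4.76% of all common dbSNP sites. By end these were 11 of 94 sites in 5′ UTRs (11.7%, 95% Wilson interval 6.66 to 19.8) and 13 of 281 in 3′ UTRs (4.63%, 2.72 to 7.75). The intervals overlap, which does not settle whether the ends differ, and this was not tested. The 24 sites lie in 20 genes, among them Adam28, Psg23, the RNA-binding protein gene Hnrnpc and Smc5, a subunit of a chromosome maintenance complex.

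Fractions of the 24 in that tumour ran from 0.211 to 1 with a median of 0.517. At 6 of them the fraction was at least 0.95, whereas the medians of the other 7 tumours at those sites were 0.3 to 0.5. Mat2b, the regulatory subunit of methionine adenosyltransferase, had 35 alternative reads of 35 there and 0.313 to 0.714 in the other 7. The remaining 5 were Rgs9, a regulator of G protein signalling, with 0.955 at both of its adjacent sites, A430033K04Rik, whose sequence is given above, with 0.975, Arhgap8 with 0.968, and Fam109b with 11 reads of 11. The ranges in the 7 tumours stayed below these values at each of the 6 sites. Over all common dbSNP sites listed there, 101 of 359 (28.1%) were at 0.95 or more. The Smc5 site went from 0.113 to 0.3 in the 7 tumours to 0.509.

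**Figure D5:**
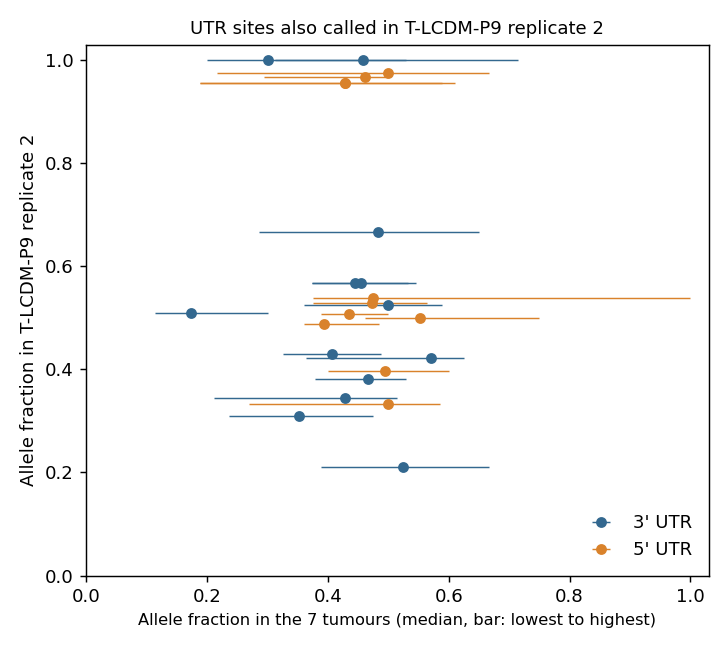
Allele fraction of the 24 members also listed in T-LCDM-P9 replicate 2 (vertical axis) against their median in the 7 tumours (horizontal axis, bars from lowest to highest). At 6 sites the fraction is at least 0.95 in that tumour, with medians of 0.3 to 0.5 in the other 7.

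None of the members was listed in any of the 10 ESC libraries. Those lists hold no call with a dbSNP identifier, so the absence says nothing about the bases carried by the ESCs.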

How the data were processed

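The files hold single-nucleotide variants of genomic DNA, 1 list for each of 8 tumours and 10 ESC libraries, in mm10 coordinates counted from 1. Per the submitters' processing notes, BWA, SAMtools and Picard were used by the authors; versions and the variant caller are not given in the sources used here. The deposited lists give, per the file headers, genotype, reads per allele, depth, allele fraction, region, gene, codon offset and dbSNP identifier for the tumour and for a blood control, and which of the 2 wild-type blood samples it was is not settled. The distance to the codon was read from the deposited offset, and where several transcripts were listed for a site the smallest offset was taken.

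Members and gene lists were chosen with earlier results of these data known. Named genes are the 12 with the most members, ties by symbol, and up to 6 per list. Of the 309 gene names, 286 matched a RefSeq symbol and 22 only a synonym. Per-tumour medians were compared by exact permutation (SciPy 1.17.1). Sites were tested with limma 3.58.1 on log2((alternative + 0.5)/(reference + 0.5)) over all 7536 common dbSNP sites, with Benjamini-Hochberg adjustment and a threshold of 0.05, and the script was tested on simulated data. P-values of the permutation tests and of limma measure the spread between these samples, which may be technical. Those of the chi-square test are set against the sampling of reads in single libraries. Alternatives were read depth, segmental duplications and repeats, neighbour distance, pseudocount and each tumour left out. No genome of the build was used here, so 3′ UTR sequence was not examined. Some members are counted but not reported by name here.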

Additional observations from a re-analysis of the deposited data

Results flagged for a closer look

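On chromosome 11 the median allele fraction of the 16 members was 0.462 in T-2iL-P9 and 0.5 to 0.5145 in the other 6 tumours, so that 1 tumour stood apart from the rest. The gap to the nearest other tumour was 0.724 of the whole range, above the limit that Dixon's test sets for 7 samples. Over all 225 common dbSNP sites of the chromosome T-2iL-P9 had 0.467 and the other 6 tumours 0.462 to 0.48, so it did not stand apart there. Of 33 groups of 7 values looked at, this was the 1 that passed, and chance flags about 1 in 20.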

How the results depend on the processing

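The number of members was 24 when T-LCDM-P9 replicate 2 was required too, and 235 with at least 20 reads in each tumour and the control. The share with an alternative control read was 63.8% with that depth and 0% when at least 2 such reads were asked for, which the lists fix, since no call in them has more than 1. Within 100 kb, 50.4% had another member. Of the other alternatives, 66 values for the main results were counted as unchanged. For the shares this meant a value within the Wilson interval of the main value. For the tests it meant the same side of the threshold. For the number of sites no interval was computed, and the values counted as unchanged ran from 348 to 394. With 1 tumour left out, the number of sites ran from 378 to 394, the 3′ share from 73.9 to 75.4%, the transition share from 65.0 to 65.7%, the control share from 41.6 to 43.1% and the share with a neighbour from 37.0 to 38.3%. The difference in median fraction ran from 0.001 to 0.0125, and limma called 0 sites each time. Exact permutation p-values over the 9 alternatives ran from 0.3 to 1. Only with T-A2iL-P14 added, which gives 35 splits, could p have fallen below 0.05. The others had 20 or 10 splits, so the design fixed their side of the threshold and they say nothing about stability. Without T-LCDM-P9 replicate 1 the chi-square test, an alternative chosen after seeing the data, called 0 of 6377 sites and 0 of 316 members. Cables1 had no site outside segmental duplications and repeats. No paired analysis was possible because the groups compared share fewer than 2 replicate numbers. At 30 to 44 reads, small differences in a site's fraction were not detectable.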

Other observations

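The 10 members on chromosome 17 had a median fraction of 0.616 in T-LCDM-P9 replicate 1 and 0.3855 to 0.511 in the other 6 tumours. They include Mut, the methylmalonyl-CoA mutase gene, whose site stayed between 0.081 and 0.311 in all 7, and Ppp2r5d, a regulatory subunit of protein phosphatase 2A, which stayed between 0.487 and 0.525. Over all 423 common dbSNP sites of the chromosome that tumour had a median of 0.468, against 0.452 to 0.469 in the other 6. On chromosome 2, T-LCDM-P9 replicate 1 had a median of 0.3665 over all 396 common dbSNP sites and 0.411 over the 21 members, where the other 6 tumours had 0.451 to 0.4575 and 0.438 to 0.5. These differences were not tested.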
